A study of Mus musculus with 10 samples.

Results

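GABAergic interneurons are the inhibitory nerve cells of the hippocampus, and 7 genes that mark them were followed here in single mice before and after status epilepticus (SE), a seizure that does not stop by itself. The markers were Gad1, Gad2, Slc32a1, Pvalb, Calb2, Reln and Lhx6, taken by symbol from the gene table, and they were 7 of the 15900 genes in it. Transcription start activity was measured by cap analysis of gene expression (CAGE), which captures the capped 5′ end of each RNA and counts it as 1 tag, so a level is given in CPM, the gene's tags scaled to the same total in every library, and needs no division by gene length.

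Each library came from the whole hippocampus of 1 male ICR (CD-1) mouse, 9 to 10 weeks old at induction, with 2 mice in each of 5 groups. The pre-SE mice were labelled untreated, and by the study's methods control mice received saline in place of pilocarpine (PILO). The SE 6 h and SE 2 days mice were given methyl scopolamine and then PILO, a muscarinic agonist, and their seizures were ended with diazepam. The SE + LEV 6 h and SE + LEV 2 days mice had the same treatment and then levetiracetam (LEV), an antiseizure drug that binds the synaptic vesicle protein SV2A, in 1 oral dose by 6 h and 5 by 2 days. Every SE group had therefore received diazepam, a positive modulator of GABA-A receptors, and the effects of SE, PILO, scopolamine and diazepam cannot be told apart. The libraries held an estimated 10540698 to 51710968 tags, and the markers stood on between 105 and 12981 tags each.

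GABA is made from glutamate by the glutamate decarboxylases GAD67 and GAD65, the products of Gad1 and Gad2, and is loaded into synaptic vesicles by VGAT, the product of Slc32a1. The calcium-binding proteins parvalbumin (Pvalb) and calretinin (Calb2) mark separate interneuron subtypes, and the LIM homeobox factor Lhx6 specifies interneurons born in the medial ganglionic eminence, among them the parvalbumin and somatostatin cells. Reln encodes reelin, a secreted protein of interneurons and of Cajal-Retzius cells. In the mouse hippocampus Calb2 is also expressed by mossy cells of the dentate hilus, which are excitatory. Interneuron loss after SE is a well known feature of rodent epilepsy models. In whole tissue, fewer cells of a type and less RNA per cell cannot be told apart.

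CAGE reads the activity of start sites, so the 200 bases before 1 RefSeq start are shown for the 3 genes that every GABAergic neuron uses. The mm9 annotation gives 5 coding starts for Gad1, 1 for Gad2 and 2 for Slc32a1. Which of them gave the counted tags was not tested. The RefSeq promoter table held an entry for 6 of the 7 markers, with none for Calb2. The sequences are on the plus strand of chromosome 2 of GRCm38.p6 at chr2:70561929-70562128, chr2:22622127-22622326 and chr2:158610558-158610757 in the order given. Capitals mark a match to GGGCGG, the GC box, on either strand.
Gad1: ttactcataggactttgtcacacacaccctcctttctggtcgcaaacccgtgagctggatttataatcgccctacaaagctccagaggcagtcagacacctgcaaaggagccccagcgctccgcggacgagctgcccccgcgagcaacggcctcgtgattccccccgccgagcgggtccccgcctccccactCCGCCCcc
Gad2: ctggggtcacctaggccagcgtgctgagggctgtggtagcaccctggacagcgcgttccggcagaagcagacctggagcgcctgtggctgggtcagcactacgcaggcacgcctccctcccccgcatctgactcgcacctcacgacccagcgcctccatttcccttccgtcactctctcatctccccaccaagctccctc
Slc32a1: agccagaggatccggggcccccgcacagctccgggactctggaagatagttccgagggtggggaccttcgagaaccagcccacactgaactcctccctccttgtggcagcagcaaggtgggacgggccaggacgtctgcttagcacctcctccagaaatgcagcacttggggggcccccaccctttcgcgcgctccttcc
The search used TATAAA (the TATA box) on the gene strand, and on both strands TGACGTCA (the cAMP response element), TGACTCA (an AP-1 site), GGGCGG and the E-boxes CAGCTG as well as CACGTG. The window of Gad1 held 1 GC box, 8 bases before the start, and those of Gad2 and Slc32a1 held none of the 6 motifs. GGGCGG was present in 31.0% of all 32851 windows of this length, TATAAA in 6.27% and TGACGTCA in 1.47%. The Reln window held 6 GC boxes and 1 CACGTG, and the first of 3 listed Lhx6 starts had 1 TGACTCA, 1 GC box and 2 CAGCTG before it. The second Lhx6 start had 1 GC box, and the third and both listed Pvalb starts had none of the 6 motifs.

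In the mm9 annotation, the build of the deposited data, Gad1 lies on chromosome 2 from 70391129 to 70440071, Gad2 on chromosome 2 from 22477725 to 22549394, Slc32a1 on chromosome 2 from 158436494 to 158441484 and Lhx6 on chromosome 2 from 35937470 to 35960928. Pvalb lies on chromosome 15 from 78021544 to 78036830, Calb2 on chromosome 8 from 112661402 to 112692110 and Reln on chromosome 5 from 21390272 to 21850523. Gad1 and Slc32a1 each overlap a gene on the other strand and Gad2 overlaps one on its own strand. Reln overlaps 6 genes, 2 of them on its own strand, and Pvalb, Calb2 and Lhx6 overlap none. How the tag clusters were assigned to genes is not given in the sources used here, so tags in those overlaps are uncertain.

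None of the 7 markers passed the test in any of the 12 comparisons made. The test was limma on log2(CPM + 0.1) over all 10 libraries, two-sided, with Benjamini-Hochberg adjustment over 15851 genes and a call at an adjusted p of at most 0.05. At 6 h after SE, 0 of 7 markers were called, where 2.76% of all genes were called higher and 0.202% lower. At 2 days 0 of 7 were called, where 5.07% of all genes were called higher and 0.593% lower. With LEV, 0 of 7 were called against pre-SE at 6 h (0.315% of all genes higher, 0.00631% lower) and at 2 days (2.83% higher, 0.0189% lower). LEV against no LEV called 0 of 7 at 6 h (0% higher, 0.0126% lower of all genes) and 0 of 7 at 2 days (0% in either direction). The test of any difference among the 5 groups also called 0 of 7, against 5.77% of all genes. At an unadjusted p under 0.05, limma gave 0 of 7 markers at SE 6 h against pre-SE (17.7% of all genes), 1 of 7 at SE 2 days (Calb2, 19.8%), 0 of 7 at SE + LEV 6 h (9.38%) and 1 of 7 at SE + LEV 2 days (Slc32a1, 10.8%). The same count for LEV against no LEV was 0 of 7 at 6 h (4.58% of all genes), 0 of 7 at 2 days (2.7%) and 0 of 7 over both times together (5.37%), where 0% of all genes passed adjustment. It was 0 of 7 for any difference among the groups (19%). A set of 2 mice against 2 cannot go below p = 0.333 in an exact permutation test. The limma values rest on each gene's spread over all 5 groups, taken as equal in each. That spread is moderated toward one shared across genes.

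**Figure D1:**
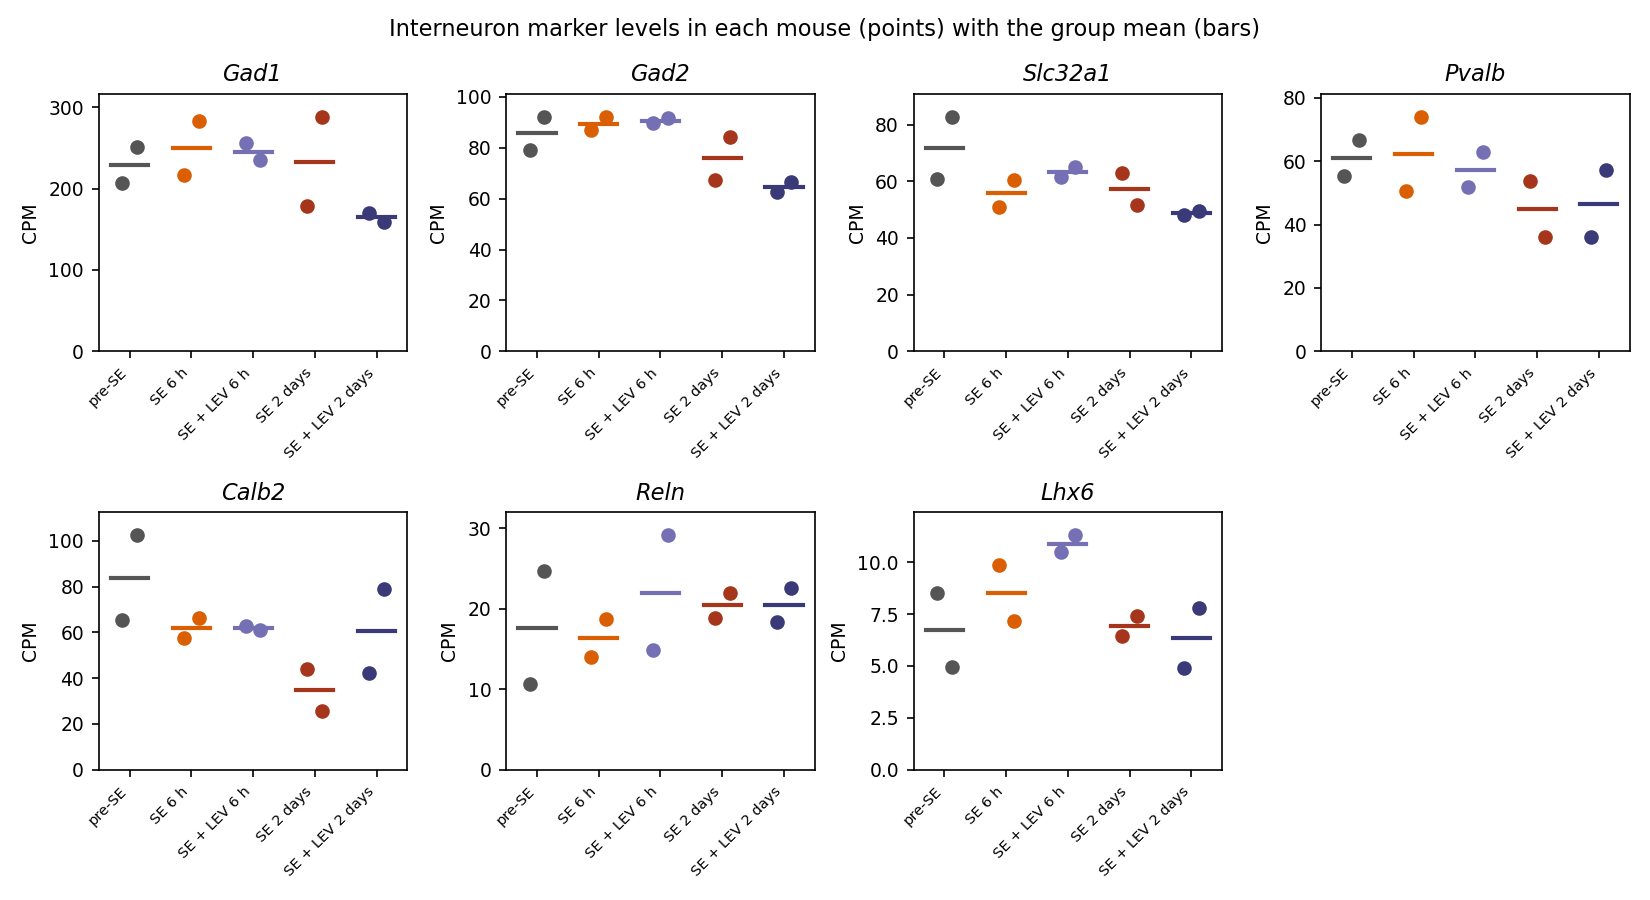
CPM of each marker (vertical axes, from 0) in each of the 10 mice, with 1 panel per gene, 2 points per group and a bar at the group mean. The group mean of Calb2 is lowest at SE 2 days, with mice at 43.9 and 25.8 CPM. Both SE + LEV 2 days mice are below every other mouse for Gad1, Gad2 and Slc32a1, with none of these genes called. Both are below both pre-SE mice in 17.5% of all genes, and the share below every other mouse was not counted.

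Gad1 was the most abundant marker, with a mean of 224 CPM over the 10 mice. Its level was 207 and 251 CPM in the pre-SE mice, 216 and 282 at SE 6 h, 255 and 235 at SE + LEV 6 h, 178 and 288 at SE 2 days, and 170 and 159 at SE + LEV 2 days. The SE mice without LEV overlapped the pre-SE pair at both times, and both SE + LEV 2 days mice lay below all the others. In 17.5% of all genes both lay below both pre-SE mice. The log2 fold change against pre-SE was 0.12 at SE 6 h (standard error 0.27, adjusted p = 0.857) and -0.01 at SE 2 days (standard error 0.27, adjusted p = 0.991). At 2 days after SE the 95% confidence interval on the log2 scale, for CPM as deposited, ran from -0.60 to 0.58, which leaves out a halving and a doubling. At SE + LEV 2 days the log2 fold change against pre-SE was -0.47 (standard error 0.27, adjusted p = 0.630).

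Gad2 gave 79.3 and 92.0 CPM in the pre-SE mice, 86.9 and 92.2 at SE 6 h, 89.9 and 91.6 at SE + LEV 6 h, 67.5 and 84.4 at SE 2 days, and 62.8 and 66.4 at SE + LEV 2 days. It was the steadiest marker, with a highest value 1.47 times the lowest. The log2 fold change against pre-SE was 0.07 at SE 6 h and -0.18 at SE 2 days (standard error 0.21 for both, adjusted p = 0.896 and 0.702), and the fold interval at 2 days ran from 0.644 to 1.21. All 4 mice at 2 days lay below all 4 SE mice at 6 h, with a log2 fold change of -0.37 (standard error 0.15, adjusted p = 0.140). In that comparison 3.89% of all genes had every 2-day mouse lower, 0 of 7 markers were called, and 6.65% of all genes were called higher and 2.28% lower. Gad2 was the 1 of 7 with an unadjusted p under 0.05 there (26.7% of all genes). Scaled to the pan-neuronal genes the same difference was -0.02, as described below.

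Slc32a1 gave 61.0 and 82.8 CPM in the pre-SE mice, 50.9 and 60.6 at SE 6 h, 61.7 and 64.9 at SE + LEV 6 h, 62.8 and 51.6 at SE 2 days, and 48.2 and 49.5 at SE + LEV 2 days. The highest mouse was a pre-SE one, and the lower pre-SE mouse was only just above the higher SE 6 h mouse. At 6 h after SE both mice were below both pre-SE mice (log2 fold change -0.35, standard error 0.23, adjusted p = 0.450), as in 31.3% of all genes. At 2 days the groups overlapped (-0.32, standard error 0.23, adjusted p = 0.506). The log2 fold change at SE + LEV 2 days against pre-SE was -0.54 (standard error 0.23, adjusted p = 0.415), with a fold interval of 0.483 to 0.981.

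Pvalb, the marker of fast-spiking basket and axo-axonic cells, gave 55.2 and 66.6 CPM in the pre-SE mice, 50.6 and 74.0 at SE 6 h, 51.8 and 62.9 at SE + LEV 6 h, 53.7 and 36.2 at SE 2 days, and 36.0 and 57.2 at SE + LEV 2 days. At 6 h the SE mice lay on either side of the pre-SE pair. At SE 2 days both were below it, the higher only narrowly, with a log2 fold change of -0.46 (standard error 0.31, adjusted p = 0.471). The fold interval of 0.450 to 1.18 does not leave out a halving.

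Calb2 differed most. Its level was 65.3 and 102 CPM in the pre-SE mice, 57.5 and 66.1 at SE 6 h, 63.0 and 61.2 at SE + LEV 6 h, 43.9 and 25.8 at SE 2 days, and 42.1 and 78.9 at SE + LEV 2 days. Both SE 2 days mice were below both pre-SE mice and below all 4 mice at 6 h, while the SE + LEV 2 days mice were far apart, 1 within the SE 2 days range and 1 within the pre-SE range. The fold at SE 2 days against pre-SE was 0.413 (interval 0.238 to 0.716, log2 fold change -1.28, standard error 0.36), and the adjusted p of 0.0682 did not pass the threshold. Without the second SE 2 days mouse the log2 fold change was -0.90 (adjusted p = 0.499), and without the second pre-SE mouse it was -0.95 (adjusted p = 0.281). Calb2 and Pvalb were the 2 of 7 markers with both SE 2 days mice below both pre-SE mice, a pattern seen in 25.6% of all genes. Against SE 6 h, Calb2 at SE 2 days had a log2 fold change of -0.87 (standard error 0.36, adjusted p = 0.210), where 0 of 7 markers were called and 3.14% of all genes were called higher and 1.11% lower. Calb2 was the 1 of 7 with an unadjusted p under 0.05 in that comparison (20.1% of all genes), and 2 of 7 markers, Calb2 and Gad2, had both SE 2 days mice below both SE 6 h mice (20.1% of all genes).

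Reln gave 10.7 and 24.7 CPM in the pre-SE mice, 14.1 and 18.8 at SE 6 h, 14.9 and 29.1 at SE + LEV 6 h, 18.8 and 22.0 at SE 2 days, and 18.3 and 22.6 at SE + LEV 2 days. The pre-SE mice differed from each other by more than the SE mice without LEV did at either time, and all SE mice without LEV lay between them. Its log2 fold change was 0.00 at 6 h and 0.32 at 2 days against pre-SE (standard error 0.43, adjusted p = 1 and 0.742), the least precise of the 7. The 3 Cajal-Retzius genes tested, Trp73, Lhx5 and Nhlh2, summed to at most 2.88 CPM in any mouse.

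Lhx6, the least abundant marker, gave 8.52 and 4.95 CPM in the pre-SE mice, 9.88 and 7.19 at SE 6 h, 10.5 and 11.3 at SE + LEV 6 h, 6.44 and 7.40 at SE 2 days, and 4.92 and 7.80 at SE + LEV 2 days. Both SE + LEV 6 h mice were above all 8 others. The log2 fold change there was 0.73 against pre-SE (standard error 0.37, adjusted p = 0.560). In 17% of all genes both were above both pre-SE mice, and the share above all 8 others was not counted. The SE 2 days pair lay inside the pre-SE range.

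Ordered by mean level, the groups ran differently for each marker, and no pair of neighbours in these orders that was tested was called. Some neighbours did not overlap, such as pre-SE and SE + LEV 2 days for Gad1 (limma log2 fold change -0.47, adjusted p = 0.630). For Calb2 the order was pre-SE (83.8 ± 26.3 CPM, SD, n = 2), SE + LEV 6 h (62.1 ± 1.30), SE 6 h (61.8 ± 6.11), SE + LEV 2 days (60.5 ± 26.0) and SE 2 days (34.9 ± 12.8). For Gad1 it was SE 6 h (249 ± 46.9), SE + LEV 6 h (245 ± 14.5), SE 2 days (233 ± 77.8), pre-SE (229 ± 31.2) and SE + LEV 2 days (165 ± 7.29). SE + LEV 2 days was the lowest group for Gad1, Gad2, Slc32a1 and Lhx6, and SE 2 days for Pvalb and Calb2.

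**Figure D2:**
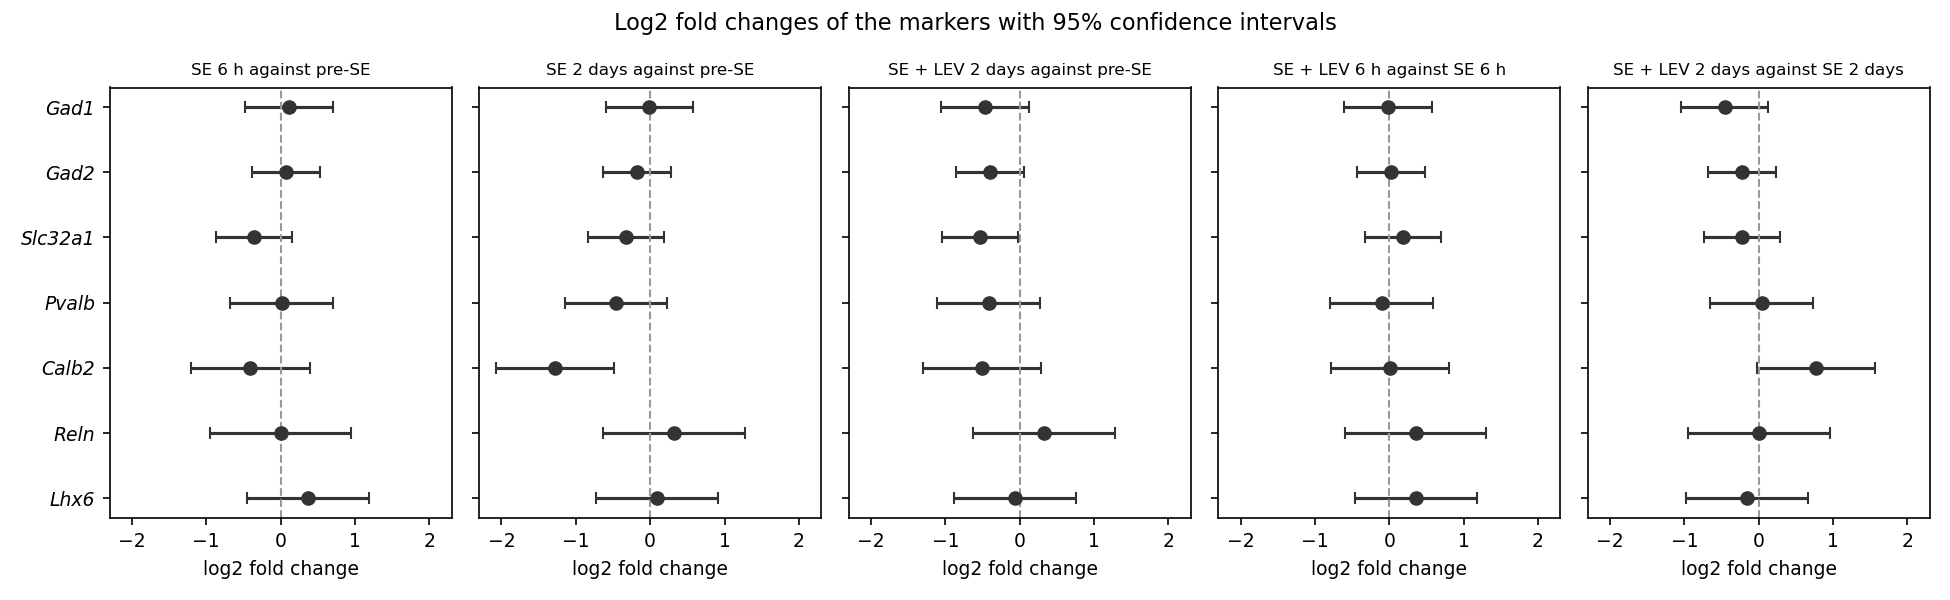
Log2 fold change (horizontal axes) of each marker in 5 comparisons, 1 panel each, with 95% confidence intervals from limma. At SE 2 days against pre-SE the interval of Calb2 lies below 0, from -2.07 to -0.48, and the other 6 include 0.

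On the deposited CPM scale, the intervals limit how large a change these libraries could have hidden. They shift with the scale: scaled to the pan-neuronal genes, Gad1 at SE 2 days moved from -0.01 to 0.46. At SE 6 h against pre-SE, 6 of 7 fold intervals left out a halving and 6 of 7 a doubling. At SE 2 days, 5 of 7 left out a halving, with Pvalb and Calb2 as the exceptions, and 6 of 7 a doubling, with Reln as the exception. Relative to a median log2 fold change of -0.13 over all genes at 6 h, the markers had a median of 0.01, with 3 of 7 below 0. At 2 days the medians were -0.03 over all genes and -0.18 over the markers, with 5 of 7 below 0.

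LEV was compared with no LEV at each time. At 6 h the log2 fold changes of the markers ran from -0.10 (Pvalb) to 0.36 (Lhx6), every adjusted p was 1, and Slc32a1 and Lhx6 were higher in both LEV mice, as were 16.1% of all genes. The fold interval left out a halving for all 7. At 2 days they ran from -0.46 (Gad1) to 0.77 (Calb2), with every adjusted p again 1. Gad1 (-0.46), Gad2 (-0.22) and Slc32a1 (-0.22) were lower in both LEV mice than in both SE 2 days mice, a pattern of 12.2% of all genes. For Calb2 the fold was 1.71 with an interval of 0.985 to 2.97, and the groups overlapped. The change in the LEV effect between the times, tested as an interaction, called 0 of 7 markers and 0% of all genes (at an unadjusted p under 0.05, 0 of 7 and 2.38%), with marker values from -0.52 (Lhx6) to 0.76 (Calb2).

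Against pre-SE, the SE + LEV 2 days mice gave negative log2 fold changes for 6 of 7 markers, with a median of -0.42 where the median of all genes was 0.02. This direction held under median-of-ratios rescaling (6 of 7) and turned under scaling to the pan-neuronal genes (3 of 7 below 0, median 0.04). Gad1, Gad2 and Slc32a1 were lower in both mice, as were 17.5% of all genes. Against SE + LEV 6 h, all 7 markers were below 0 at SE + LEV 2 days, as were 42.3% of all genes. The markers had a median of -0.37, against 0.09 over all genes. In that comparison 0 of 7 were called, where 2.06% of all genes were called higher and 0.0757% lower. Gad2 had a log2 fold change of -0.49 (standard error 0.21, adjusted p = 0.382). Gad2 was the 1 of 7 with an unadjusted p under 0.05 (11.9% of all genes), and 4 of 7 markers, Gad1, Gad2, Slc32a1 and Lhx6, were lower in both 2-day mice (14.6% of all genes). Scaled to the pan-neuronal genes, 4 of 7 were below 0.

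**Figure D3:**
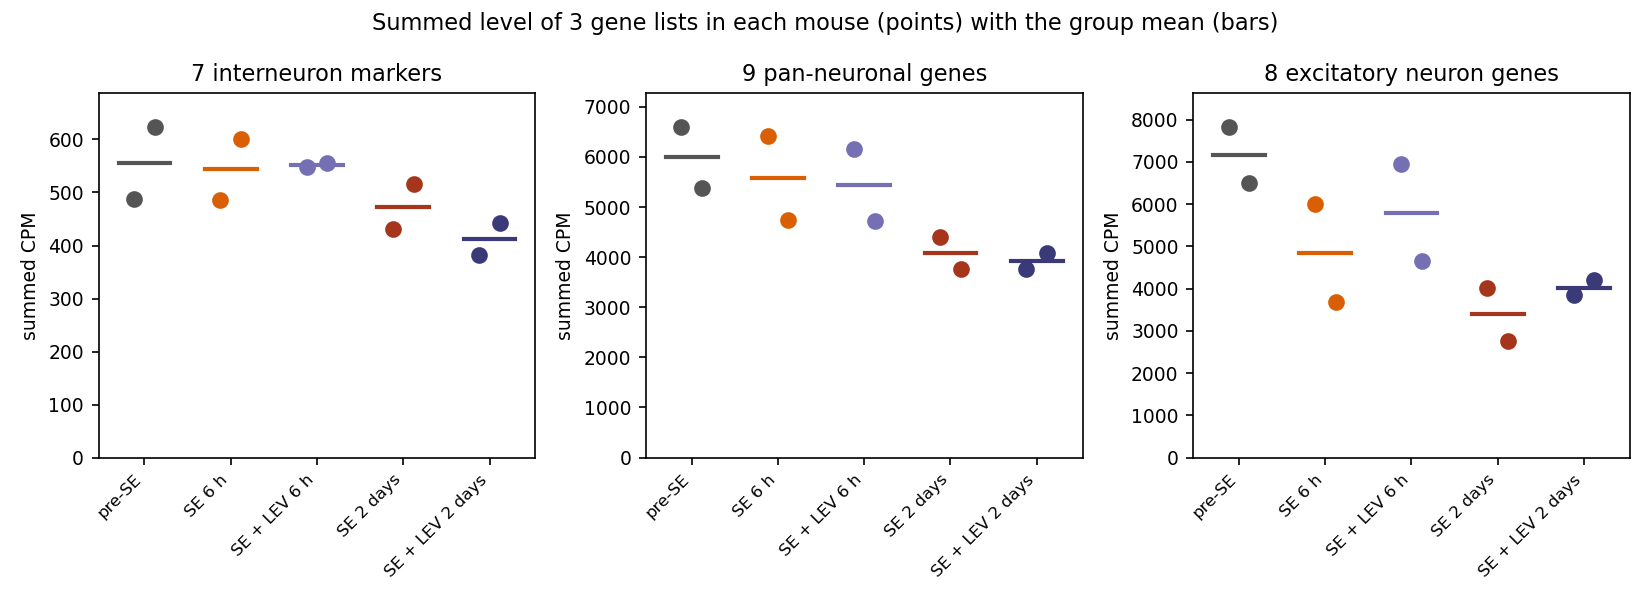
Summed CPM (vertical axes, from 0) of the 7 markers, the 9 pan-neuronal genes and the 8 excitatory neuron genes in each mouse, with a bar at the group mean. The SE 2 days mice lie at 431 to 515 for the markers against 487 to 624 before SE, and at 3758 to 4401 against 5385 to 6606 for the pan-neuronal genes.

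The markers were set beside genes of all neurons, since a whole hippocampus changes in cell makeup after SE. The 9 pan-neuronal genes, which include Rbfox3, Snap25 and Map2, summed to 5385 to 6606 CPM in pre-SE mice and 3758 to 4401 at SE 2 days, and the 8 excitatory genes to 6510 to 7838 and 2769 to 4014. None of these 17 genes was called at either time after SE. At 2 days 9 of 9 pan-neuronal log2 fold changes were below 0 (median -0.43) and 7 of 8 excitatory ones (median -0.95), against 5 of 7 and a median of -0.18 for the interneuron markers. Over all genes 52.8% were below 0, with a median of -0.03. The difference between these lists was not tested. When each library was scaled to its pan-neuronal genes, 1 of 7 markers (Calb2, -0.81) was below 0 at SE 2 days and the median became 0.29, with 0 of 7 called, while the median of all genes became 0.42. The direction of Gad1, Gad2, Slc32a1 and Pvalb at 2 days therefore turned with the scale, and that of Calb2 did not.

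The 7 markers did not vary as 1 group over the 10 mice. As a description over 10 libraries that differ in depth and tissue makeup, Pearson's r on log2(CPM + 0.1) was 0.89 for Gad1 and Gad2, 0.80 for Pvalb and Calb2 and 0.65 for Slc32a1 and Pvalb, and -0.08 for Gad1 and Calb2. The second SE 2 days mouse had the highest Gad1 of the 10 (288 CPM) and the lowest Calb2 (25.8 CPM), so its ratio of Calb2 to Gad1 was 0.0897, where the other 9 mice had 0.234 to 0.495. The ratio of Gad1 to Gad2 ran from 2.40 to 3.41 over the mice. The genes most like 6 of the 7 markers among 14220 with a mean of at least 1 CPM were Cort for Gad2 (r = 0.92), Hapln4 for Pvalb (0.94), Pnck for Calb2 (0.98), Elavl3 for Reln (0.94), Adam22 for Slc32a1 (0.86) and 1200011M11Rik for Gad1 (0.91). Cort encodes cortistatin, an interneuron peptide, and Hapln4 a link protein of perineuronal nets.

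Other interneuron genes did include some that passed the test. Of 18 further subtype genes, 1 was called higher (2.76% of all genes) and 0 lower (0.202%) at SE 6 h. At SE 2 days 0 were called higher (5.07% of all genes) and 1 lower (0.593%). The gene that fell was Cort, with 13.6 and 22.9 CPM in the pre-SE mice and 4.28 and 7.74 at SE 2 days (log2 fold change -1.60, standard error 0.41, adjusted p = 0.0499), a call that 9 of 11 alternative settings lost. Cort was also low at SE + LEV 2 days, at 4.39 and 6.86 CPM, with an adjusted p of 0.0669. The gene that rose was Tac1, the substance P precursor, with 4.90 and 6.38 CPM before SE and 15.9 and 24.9 at SE 6 h (1.81, standard error 0.42, adjusted p = 0.0490), lost in 8 of 11 settings. Sst, the somatostatin gene that shares the Lhx6 lineage, gave 458 and 570 CPM before SE, 657 and 1256 at SE 6 h, and 449 and 801 at SE 2 days (0.83 and 0.23, adjusted p = 0.277 and 0.789). Npy, the neuropeptide Y gene, gave 101 and 122 CPM before SE and 179 and 711 at SE 2 days (1.68, standard error 0.59, adjusted p = 0.142). Calb1, which marks granule cells as well as interneurons, was lower over the 4 SE groups together (log2 fold change -1.05, standard error 0.23, adjusted p = 0.0373), a call lost in 7 of 17 settings. In that pooled comparison 0 of 7 markers were called, against 2.95% of all genes higher and 0.132% lower, and the nearest was Calb2 (-0.65, standard error 0.28, adjusted p = 0.289), the 1 of 7 with an unadjusted p under 0.05 (16.5% of all genes).

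**Figure D4:**
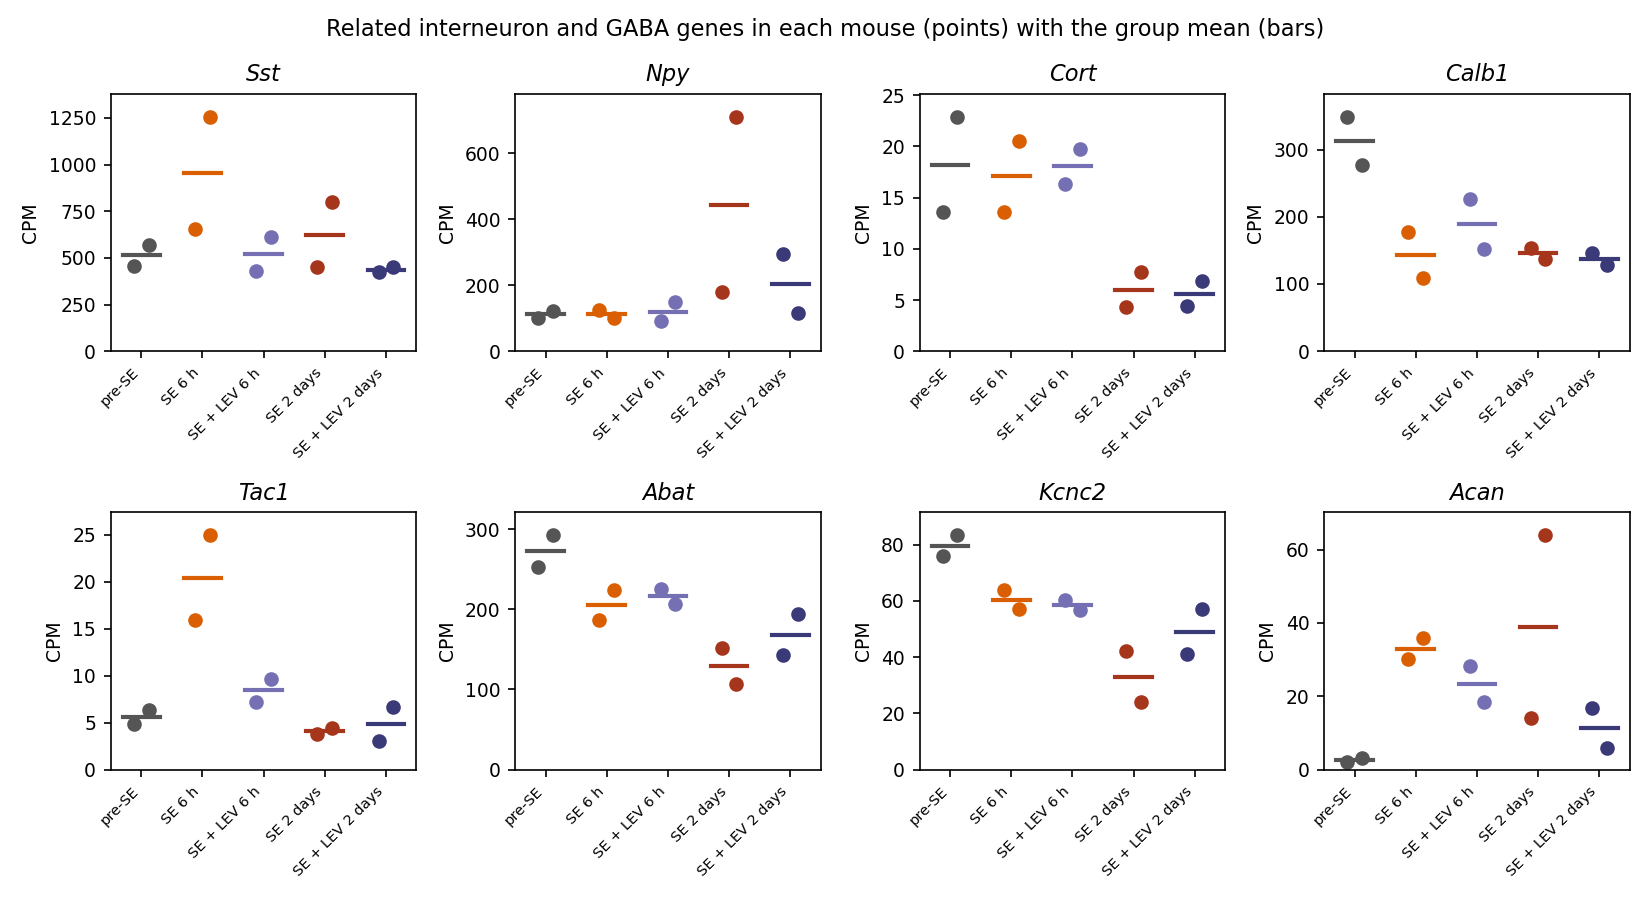
CPM (vertical axes, from 0) of 8 related genes in each mouse, with 2 points per group and a bar at the group mean. Cort is at most 7.74 CPM in all 4 mice at 2 days and at least 13.6 CPM in the other 6, and Acan is above both pre-SE mice in all 8 SE mice.

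Among fast-spiking and perineuronal net genes, 1 of 7 was called higher at each time (2.76% of all genes at 6 h, 5.07% at 2 days). At SE 2 days 1 of 7 was called lower (0.593% of all genes). Acan, the aggrecan core protein of perineuronal nets, rose from 2.10 and 3.06 CPM before SE to 30.2 and 35.8 at SE 6 h (log2 fold change 3.64, standard error 0.66, adjusted p = 0.0171) and 14.0 and 63.9 at SE 2 days (3.51, adjusted p = 0.0127). Kcnc2, the Kv3.2 potassium channel gene of fast-spiking cells, fell from 76.1 and 83.3 CPM to 42.1 and 24.1 at SE 2 days (-1.32, standard error 0.29, adjusted p = 0.0249), beside Pvalb at -0.46. These calls were lost in 4 of 11, 2 of 11 and 4 of 11 settings in that order. Of 8 genes of GABA uptake, breakdown and precursor supply, 1 was called lower at SE 2 days (0.593% of all genes). This was Abat, the GABA transaminase that breaks GABA down. It had 253 and 292 CPM before SE and 152 and 107 after it (-1.09, standard error 0.25, adjusted p = 0.0322, lost in 4 of 11 settings). Of 12 interneuron lineage transcription factors tested, 0 were called at either time, with a median of -0.32 at 6 h and -0.70 at 2 days.

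**Figure D5:**
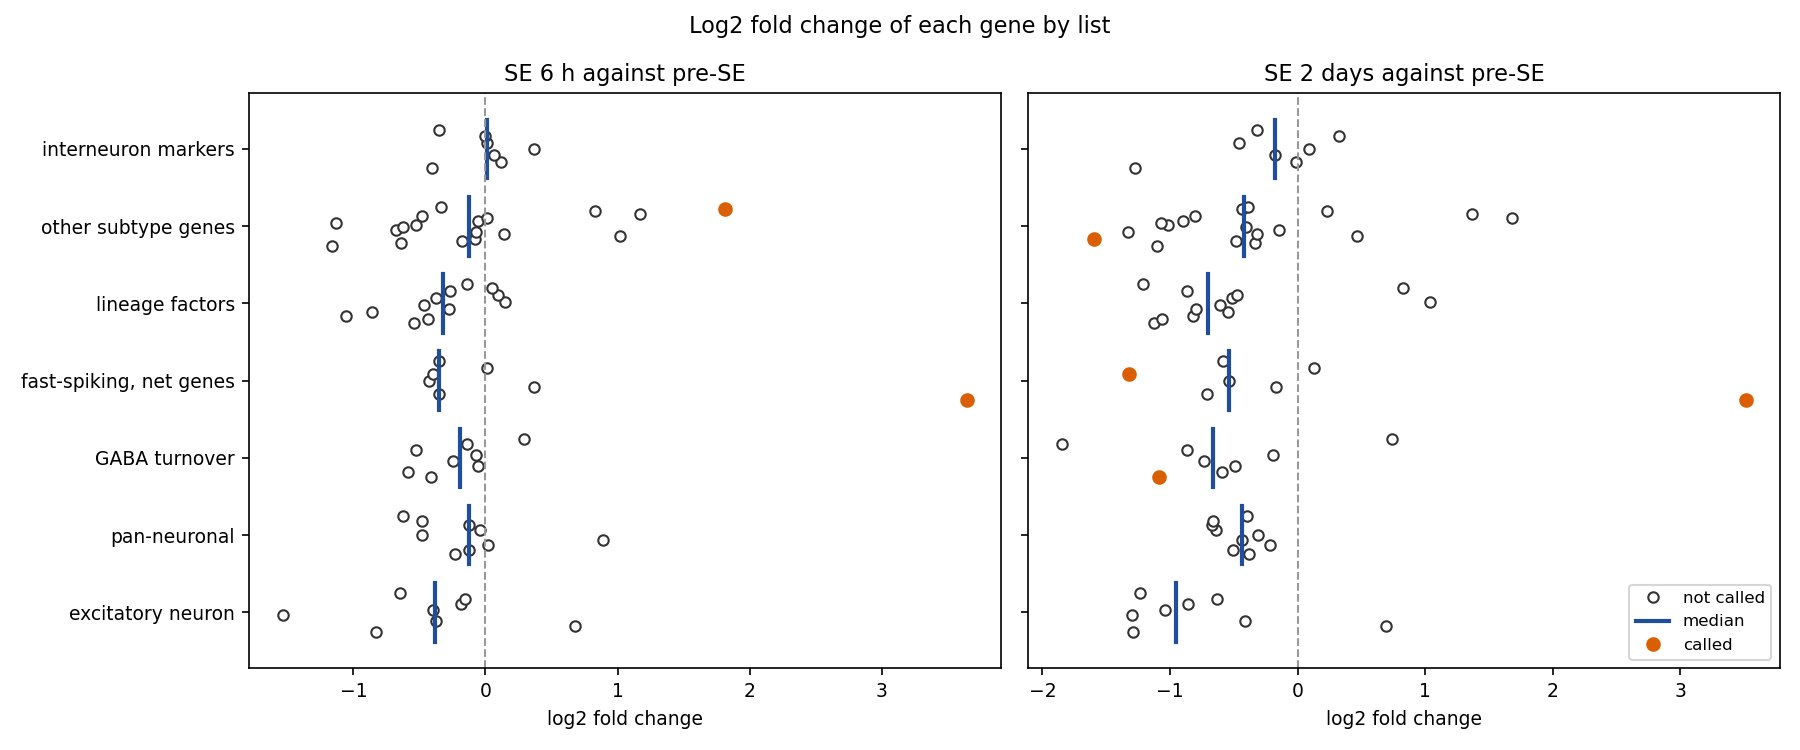
Log2 fold change (horizontal axes) of each gene of 7 lists at SE 6 h and SE 2 days against pre-SE, with filled points for genes called at an adjusted p of at most 0.05 and a bar at the list's median. None of the 7 interneuron markers is filled at either time, and their medians are 0.01 and -0.18.

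Markers of other cells and of neuronal activity moved in the same libraries, and their part in the marker values was not tested. Of 6 activity-induced genes, 4 were called higher at SE 6 h (2.76% of all genes) and 4 at SE 2 days (5.07%), led by Npas4 (5.66) and Fos (5.29) at 6 h on the log2 scale. All 6 had a log2 fold change below 0 with LEV against no LEV at both times, with 0 of 6 called. Over all genes 44.2% were below 0 at 6 h and 44.6% at 2 days. At 2 days Gfap and Aqp4 of 8 astrocyte genes were called higher, while 5 of the 8 were below 0 with none of those called, and the microglial gene Aif1 was called higher. At 6 h the microglial genes P2ry12 and Tmem119 were called lower and the endothelial gene Cdh5 higher. The 6 oligodendrocyte genes summed to 4967 to 5400 CPM before SE and 1777 to 2725 at SE 2 days, with 0 of 6 called, and the 6 endothelial genes to 60.1 to 67.6 and 107 to 118, with 0 of 6 called. The 6 striatum genes, which mark a neighbouring tissue rich in GABAergic neurons, summed to 124 to 142 CPM before SE and 261 to 581 at SE 2 days, where Penk and Drd1 were called higher. Without Penk the other 5 summed to 106 and 117 CPM before SE and 129 and 71.2 at SE 2 days, so the higher sum was that of Penk. The 6 thalamus genes summed to 89.7 to 95.3 CPM before SE and 60.0 to 65.9 at SE 2 days. The 4 choroid plexus genes summed to 8.37 CPM in 1 SE 6 h mouse and 3991 in the other, and to 12.2 and 1699 in the pre-SE mice, so their level did not follow the groups.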

How the data were processed

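CAGE libraries were made from whole hippocampi of 10 mice, 2 in each of 5 groups. Per the labels and the methods, the authors mapped tags to mm9 with BWA 0.7.17 and then HISAT2 2.0.5, clustered them and discarded weak clusters, and deposited 1 CPM value per gene and mouse to 2 decimals. The step from clusters to genes is not given in the sources used here. Tag totals were estimated from the steps between low CPM values.

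Genes that reached 0.1 CPM in 2 or more libraries (15851 of 15900, with all 7 markers) were tested with limma 3.58.1 (trend) in R 4.3.3 on log2(CPM + 0.1), with 5 group means, 12 contrasts and an F test. Fold changes are on this scale. Confidence intervals are 95% and unadjusted. The procedure was also run on simulated counts with the same relative spread set for every gene. That setting lacks the tissue differences between these libraries. Alternatives changed the pseudocount, the filter, the scaling and the replicate block, and left out each mouse. The study's own differential test was edgeR 3.22.5 on tag clusters, which was not repeated. Named genes other than the markers were those called in their list, at most 4 a list and comparison, with Sst and Npy. The markers and lists were chosen with earlier results of these data known. Replicate numbers mark different mice. Deviations of same-numbered mice correlated from -0.44 to 0.34 between groups, so the numbers were not taken as pairs. Promoter sequences are from RefSeq (GRCm38.p6). A few values of genes other than the markers are not reported here.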

Additional observations from a re-analysis of the deposited data

Results flagged for a closer look

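Slc32a1 was not called for LEV against no LEV at either time, and its log2 fold change had opposite signs at the 2 times. It was 0.19 at 6 h (standard error 0.23). Both SE + LEV mice there were higher than both SE mice, as in 16.1% of all genes. At 2 days it was -0.22 (standard error 0.23), with both lower, as in 12.2% of all genes. The difference between the times was tested as an interaction term in limma and did not pass (log2 difference -0.41, standard error 0.33, adjusted p = 1).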

How the results depend on the processing

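All 321 counts of called markers under the alternatives stayed at 0, the count in each comparison. Of 554 single log2 fold changes of the markers recomputed, 504 kept their direction, 50 turned, and 0 passed the threshold. Median-of-ratios rescaling turned these log2 fold changes: for SE 6 h against pre-SE Reln 0.13, for SE 2 days against pre-SE Gad1 0.015, for LEV at 6 h Gad2 -0.038, Calb2 -0.048. It also turned, for LEV at 2 days Pvalb -0.0084, Reln -0.050. A pseudocount of 0.01 turned these log2 fold changes: for SE 6 h against pre-SE Reln 0.0002. Scaling to the pan-neuronal genes turned these log2 fold changes: for SE 6 h against pre-SE Reln 0.13, for SE 2 days against pre-SE Gad1 0.46, Gad2 0.29, Slc32a1 0.15, Pvalb 0.0077, for SE + LEV 2 days against pre-SE Gad2 0.054, Pvalb 0.038, Lhx6 0.38. It also turned, for LEV at 6 h Gad2 -0.022, Calb2 -0.032, for LEV at 2 days Reln -0.011, for 2 days against 6 h Gad1 0.0019, Slc32a1 0.18. The cause of each turn was not tested. Leaving out 1 mouse at a time turned the direction of the following values, given as ranges. For SE 6 h against pre-SE they were Gad1 -0.077 to 0.31, Gad2 -0.040 to 0.17, Lhx6 -0.015 to 0.76, Pvalb -0.26 to 0.29, Reln -0.60 to 0.60. For SE 2 days against pre-SE they were Gad1 -0.36 to 0.34, Lhx6 -0.30 to 0.47, Reln -0.28 to 0.92. For SE + LEV 2 days against pre-SE they were Lhx6 -0.45 to 0.32, Reln -0.27 to 0.92. For LEV at 6 h they were Calb2 -0.090 to 0.11, Gad1 -0.20 to 0.18, Gad2 -0.022 to 0.062, Pvalb -0.37 to 0.17, Reln -0.13 to 0.84. For LEV at 2 days they were Lhx6 -0.48 to 0.17, Pvalb -0.29 to 0.38, Reln -0.15 to 0.15. For 2 days against 6 h they were Reln -0.095 to 0.39. 

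With the replicate number as a block the count of called markers was 0 in every comparison, and no call on a marker changed. Over all genes the block gave 804 calls at SE 2 days against pre-SE in place of 897 and 0 in place of 2 for LEV at 6 h. Since SE + LEV 2 days deviations ran against those of pre-SE (-0.44) and SE 2 days (-0.18), a pairing with its numbers crossed was added after seeing the data, and it gave 599 calls at SE + LEV 2 days against pre-SE in place of 451, 0 for LEV at 2 days, and 0 markers.

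Alternatives for Cort, Tac1, Calb1, Acan, Kcnc2 and Abat were also added after seeing the data. DESeq2 and edgeR on recovered tags, planned as alternatives, were not run, because a strict check of whole tags was not met in most libraries at the 2 decimals deposited, although a search allowing for that rounding placed 100% of the values up to 20 CPM on a step in all 10 libraries. With 2 mice a group, the fold intervals of Reln, Calb2 and Lhx6 are wide, and changes inside them could not be detected.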
